A study of Mus musculus with 6 samples.

Results

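The genes described here are 10 mouse genes of iron storage, import, export and sensing, found in the deposited count table by matching its Ensembl identifiers to their symbols. They are Ftl1, Fth1, Tfrc, Slc40a1, Slc11a2, Ncoa4, Aco1, Ireb2, Fbxl5 and Steap3, all 10 of them among the 55401 genes of the table. The table holds 6 RNA-seq libraries of small-intestinal group 3 innate lymphoid cells (ILC3s), lymphocytes without antigen receptors that live in mucosal tissue and make interleukin 22. There were 3 libraries of cells pretreated with PEox and 3 of cells pretreated with vehicle, all from wild-type mouse pups. The series is titled for the bile acid receptor FXR, ferroptosis of the gut epithelium (a form of cell death that needs iron and oxidises membrane lipids) and impaired ILC3s in necrotizing enterocolitis of newborns. The labels do not spell out PEox. Dose, exposure time and exact age are not stated in the labels.

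Iron enters most cells bound to transferrin through the transferrin receptor, is reduced and carried out of the endosome, and is then used, exported by ferroportin or stored inside the ferritin shell, which is built of heavy and light chains. The iron regulatory proteins, encoded by Aco1 and Ireb2, sense cellular iron: when iron is scarce they bind hairpins called iron-responsive elements, which blocks translation of messages that carry one near the start and stabilises the Tfrc message, which carries several near the end. Much of this control therefore acts on translation and is not seen in RNA levels, while oxidants can also raise ferritin transcription through the factor NRF2.

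The elements themselves are shown because they set which of these messages the sensors can bind. Transcripts of the GENCODE M21 annotation (mouse build GRCm38) were searched on the sense strand for a C, any 5 bases, CAGTG and any base, with at least 4 of the 5 bases before the loop able to pair with the 5 after it, and 5 of the 10 genes had a match. Capitals mark the bulged C and the 6-base loop, and each window is 30 bases of the sense strand.
Ftl1: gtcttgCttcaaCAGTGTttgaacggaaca
Fth1: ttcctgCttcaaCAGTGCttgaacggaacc
Slc40a1: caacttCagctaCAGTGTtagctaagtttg
Slc11a2: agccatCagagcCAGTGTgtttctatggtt
Tfrc, match 1: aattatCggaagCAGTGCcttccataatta
Tfrc, match 2: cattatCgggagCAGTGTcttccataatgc
Tfrc, match 3: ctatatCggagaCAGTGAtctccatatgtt
Tfrc, match 4: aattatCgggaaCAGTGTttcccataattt

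The Ftl1 window lies at chr7:45459778-45459807 on the minus strand, the Fth1 window at chr19:9982732-9982761 on the plus strand and the Slc40a1 window at chr1:45925464-45925493 on the minus strand, all in the 5′ untranslated region. The Slc11a2 window lies at chr15:100395152-100395181 on the minus strand and the 4 Tfrc windows between 32631219 and 32631739 on the plus strand of chromosome 16, all in the 3′ untranslated region. The Slc11a2 match had 4 of 5 stem pairs and the others 5 of 5. Among 21847 protein-coding genes, 0.952% had a match in a 5′ untranslated region and 4% in a 3′ untranslated region. A match describes the sequence and does not show binding. The other genes lie at chr14:32159865-32179855 (Ncoa4), chr4:40143081-40198338 (Aco1), chr9:54863789-54912530 (Ireb2), chr5:43744615-43821638 (Fbxl5) and chr1:120190757-120272705 (Steap3), and no protein-coding transcript of theirs held the pattern.

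**Figure D1:**
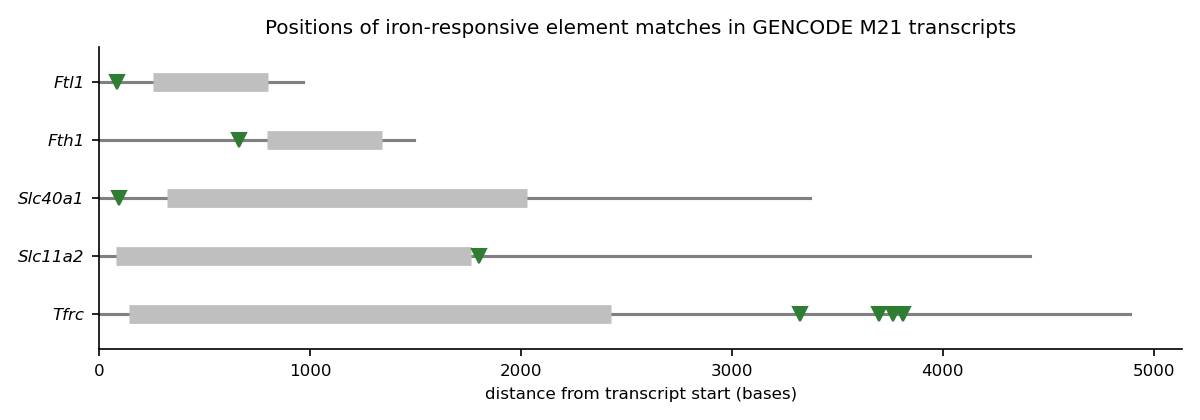
Transcripts are drawn as lines from their start (x axis, bases), with the coding part as a grey bar and matches to the iron-responsive element as green triangles. The longest protein-coding transcript of each gene is drawn, and distances from the start depend on that choice, as for Fth1, with its match at base 664 of 1494. The single matches of Ftl1, Fth1 and Slc40a1 lie before the coding part, and the match of Slc11a2 and the 4 matches of Tfrc lie after it.

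Library totals ran from 56252806 to 57532484 counts in PEox and from 59524577 to 66849230 in vehicle. Levels are given as CPM, counts per 1000000 counts of a library after TMM scaling, which is meant to offset differences in library composition. The protocol text names sorted epithelial cells, yet 10 ILC3 genes such as Il22 and Il23r summed to 6874 ± 56.8 CPM in PEox and 12335 ± 156 in vehicle, against 75.6 ± 0.627 CPM in PEox and 114.8 ± 7.27 in vehicle for 12 epithelial genes (SD, n = 3 each). Of the 10 ILC3 genes 3 were called lower, 6 did not pass and Kit was called higher; Il22 and Id2 carried most of the lower sum, and Il23r averaged 203.0 CPM in PEox and 214.8 CPM in vehicle (edgeR adjusted p = 0.412). Genes of other cell types differed as well. The 8 B cell genes summed to 184.6 CPM in PEox and 554.0 in vehicle on average, with 8 called lower. For 6 T cell genes the sums were 50.7 and 111.0 CPM, with 4 called lower and 1 higher. For 6 mast cell genes they were 25.1 and 149.1 CPM, with 3 called lower. Their part in the iron gene values was not tested. In bulk RNA, fewer cells of a type and less RNA per cell cannot be told apart. The labels do not tie the libraries to different animals; the p-values therefore rest on a spread between libraries that may be technical in origin.

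The iron genes moved mainly upward. Of the 10 genes, 6 rose in PEox, 0 fell and 4 did not pass an adjusted p of 0.05 in the edgeR quasi-likelihood test, which was fitted and adjusted over all 18253 genes tested. At an unadjusted p under 0.05 the numbers were 7 higher and 1 lower. The share over all genes at that cutoff is not given here and is at least the 37.1% called after adjustment. Both DESeq2 and limma-voom called 6 higher and 1 lower, with Tfrc the gene called lower. Of all genes tested, DESeq2 called 40.6% and limma-voom 38.7%. In the main edgeR fit 37.1% of all genes tested were called, 18.3% as higher and 18.8% as lower in PEox. With at least 5 CPM in 3 libraries, edgeR called 60.6% of 10743 genes and 7 of the 9 iron genes tested. The 10 genes had a median log2 fold change of 0.47, beside 0.00 for all genes tested. CPM ranges of the groups did not overlap for the same 6 genes, all higher in PEox, whereas 50.6% of all genes tested had ranges that did not overlap, with 24.1% of all genes higher in PEox. Scaling by library size alone moved the median of all genes to 0.14 and the share of higher calls to 61.9%, beside 49.3% with TMM. Removing a trend with transcript length and GC content gave 0.14 and 62.3%. The trend used each gene's median transcript length, which includes short partial transcripts, so values with it removed depend on that length. For Fth1, Ncoa4 and Slc11a2 the median was 592, 791 and 713.5 bases, beside 1494, 4065 and 4415 for the longest transcript. A fit on the longest transcript was not run. The 6 calls held under every alternative scaling, filter, tool and left-out library that was run.

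**Figure D2:**
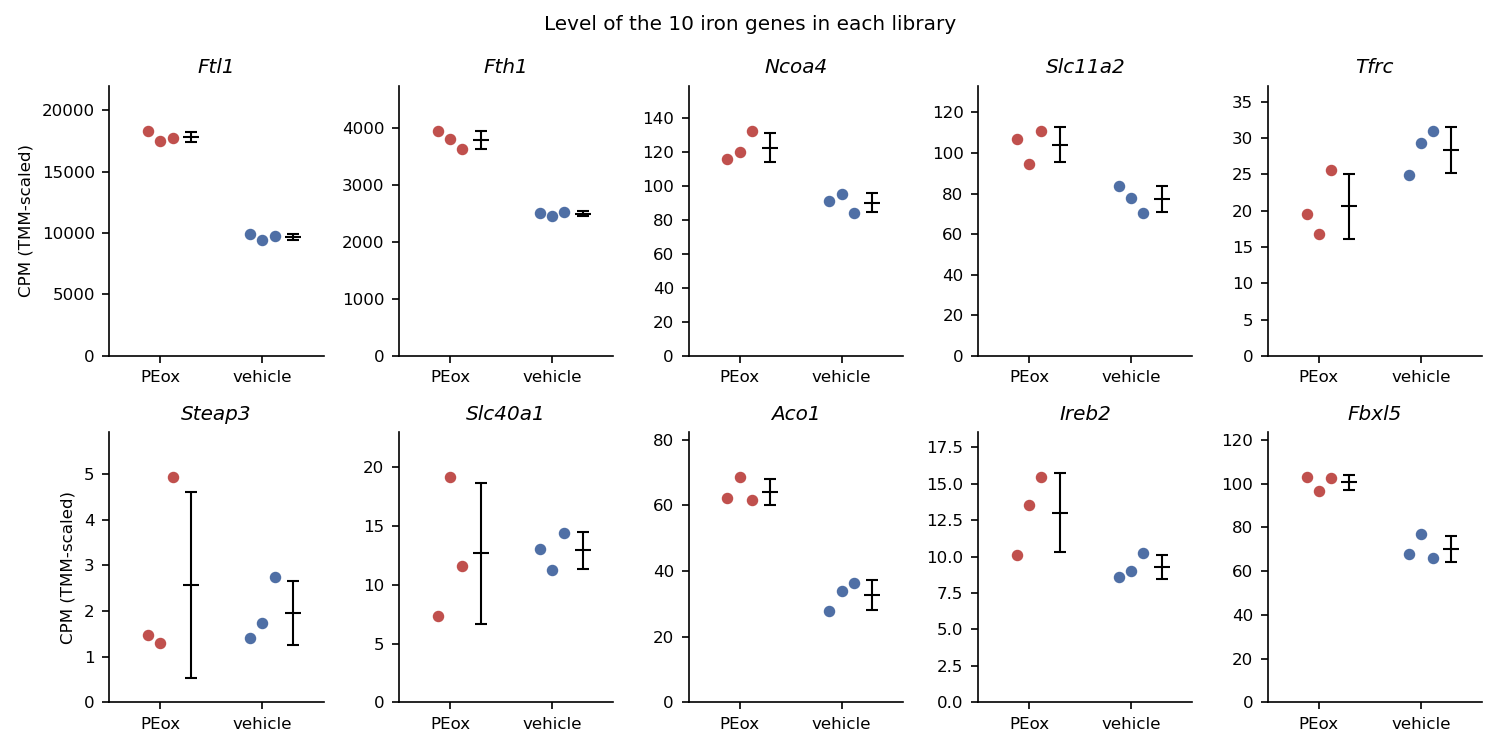
Points are single libraries (y axis, TMM-scaled CPM from 0, a separate scale per gene), with PEox left of vehicle and mean ± SD of 3 libraries beside the points. Points of PEox lie above those of vehicle without overlap for Ftl1, Fth1, Ncoa4, Slc11a2, Aco1 and Fbxl5, and overlap for Tfrc, Steap3, Slc40a1 and Ireb2.

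The storage genes were the most abundant of the set and rose with little spread. Ftl1, which encodes the ferritin light chain, had 18301, 17475 and 17691 CPM in the PEox libraries, against 9893, 9406 and 9760 CPM in the vehicle libraries. Every PEox value was above every vehicle value, and the log2 fold change was 0.88 ± 0.03 (SE; edgeR adjusted p = 1.12e-06). Fth1, which encodes the heavy chain that oxidises iron for storage, had 3946, 3798 and 3626 CPM in PEox, against 2503, 2452 and 2530.0 CPM in vehicle. Its groups did not overlap either, and its log2 fold change was 0.60 ± 0.04 (SE; edgeR adjusted p = 1.32e-05). The 2 genes together held 2.26% ± 0.0548 of all counts in PEox and 1.16% ± 0.0270 in vehicle (SD, n = 3 each). After removal of that trend in length and GC content the log2 fold changes were 1.34 for Ftl1 and 1.13 for Fth1, both called.

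Ferritin genes have near-identical copies, so reads could be counted for one or another. The table has 4 rows of light-chain symbols, and the 3 other than Ftl1 held 4.28% to 4.59% of the family's counts in a library. These are the pseudogenes Ftl1-ps1, Ftl2-ps and Ftl1-ps2, at log2 fold changes of 0.83, 0.73 and 1.38 in the same fit. Of 12 heavy-chain rows, 9 had no count in any library, and those other than Fth1 held at most 0.025% of the family's counts. With all copies added in, the log2 fold change was 0.88 for Ftl1 and 0.60 for Fth1. The predicted gene Gm10252, on the opposite strand to Ftl1, averaged 14.3 CPM in PEox and 6.06 CPM in vehicle, far below Ftl1.

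Haemoglobin transcripts were higher in the same libraries as ferritin. The 4 haemoglobin genes Hba-a1, Hba-a2, Hbb-bs and Hbb-bt summed to 5457, 5776 and 5099 CPM in PEox, against 2796, 2750.1 and 2771 CPM in vehicle. Of 11 erythroid genes 5 were called higher, 4 did not pass and 2 were not tested, and the list summed to 5122 to 5809 CPM in PEox and 2758 to 2803 CPM in vehicle. Alas2, the erythroid enzyme that starts haem synthesis, averaged 26.6 CPM in PEox and 4.82 CPM in vehicle, while the red-cell lineage genes Klf1 and Slc4a1 averaged under 1 CPM in both groups. Epor was at 0 in all 3 PEox libraries, averaged 0.164 CPM in vehicle and was not tested. Ferritin CPM per haemoglobin CPM was 3.98 ± 0.262 in PEox and 4.39 ± 0.0707 in vehicle (SD, n = 3 each). The part of erythroid RNA in the ferritin result was not tested.

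Ncoa4, the receptor that delivers ferritin to the lysosome for breakdown, also rose. It had 115.8, 119.7 and 132.3 CPM in PEox, against 91.2, 95.2 and 84.2 CPM in vehicle. The groups did not overlap, and the log2 fold change was 0.44 ± 0.07 (SE; edgeR adjusted p = 0.00213), or 0.72 once the length and GC-content trend was removed.

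Of the 3 uptake genes Slc11a2 rose, and Tfrc and Steap3 did not pass the test. Tfrc, the transferrin receptor, had 19.6, 16.8 and 25.6 CPM in PEox, against 24.9, 29.3 and 31.0 CPM in vehicle. PEox library 3 lay above vehicle library 1, and the log2 fold change of -0.46 ± 0.17 (SE, 95% interval -0.85 to -0.07) did not pass (edgeR adjusted p = 0.067). Among the alternatives it was called lower without PEox library 3 (log2 fold change -0.64, edgeR adjusted p = 0.0118), at a minimum of 5 CPM (edgeR, 0.0218), by DESeq2 (0.03), by limma-voom (0.0472) and in edgeR with replicate numbers as a block (0.0485). The adjusted p ranged from 0.0118 to 0.2 over all alternatives. Dividing cells are known for high transferrin receptor levels; in these libraries 10 proliferation genes such as Mki67 summed to 283.8 to 288.8 CPM in PEox and 1088 to 1149 CPM in vehicle, all 10 called lower, and their part in the Tfrc value was not tested.

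Slc11a2, the divalent metal transporter DMT1 that moves iron out of endosomes, was higher in PEox. It had 106.9, 94.6 and 110.9 CPM in PEox, against 83.6, 78.0 and 70.4 CPM in vehicle, with no overlap. The log2 fold change was 0.43 ± 0.09 (SE, edgeR adjusted p = 0.00572), and 0.87 once the length and GC-content trend was removed. That second value rests on a median length of 713.5 bases, beside 4415 for the longest transcript. Both genes carry matches to the element in the 3′ untranslated region, where Tfrc has 4 and Slc11a2 has 1; Slc11a2 is known to have isoforms with and without it, which gene counts do not separate. Steap3, the endosomal reductase that prepares iron for DMT1, was the least abundant, with 1.48, 1.30 and 4.92 CPM in PEox (87, 77 and 298 counts), against 1.40, 1.75 and 2.75 CPM in vehicle (89, 99 and 173 counts). PEox library 3 held the highest value and PEox library 2 the lowest, and the log2 fold change of 0.39 ± 0.56 (SE, 95% interval -0.89 to 1.67) did not pass (edgeR adjusted p = 0.652). Without PEox library 3 it was -0.50.

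The exporter gene showed no call in either direction. Slc40a1, which encodes ferroportin, the known iron exporter of mammalian cells, had 7.31, 19.1 and 11.6 CPM in PEox, against 13.0, 11.2 and 14.4 CPM in vehicle. The PEox libraries held both the lowest and the highest value, and the log2 fold change was -0.03 ± 0.31 (SE, 95% interval -0.75 to 0.70; edgeR adjusted p = 0.961). Without PEox library 1 it was 0.25 and without PEox library 2 it was -0.46. Macrophages are known for high ferroportin; the 10 macrophage genes summed to 112.1, 85.8 and 107.8 CPM in PEox libraries 1 to 3, against 198.5, 200.4 and 209.1 CPM in vehicle, with 5 called lower and none at 0 in all libraries. Lyz2 alone averaged 51.0 CPM in PEox and 110.5 CPM in vehicle, and 5 of the 10 macrophage genes did not pass. The part of macrophage RNA in the Slc40a1 values was not tested.

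Of the 3 sensor genes Aco1 and Fbxl5 rose and Ireb2 did not pass the test. Aco1, whose protein is cytosolic aconitase when it holds an iron-sulphur cluster and iron regulatory protein 1 when it does not, had 62.1, 68.5 and 61.5 CPM in PEox, against 27.7, 33.9 and 36.4 CPM in vehicle. At 0.97 ± 0.11 (SE; edgeR adjusted p = 0.000306) its log2 fold change was the largest of the 10 genes in that fit, a 1.96-fold higher level. Fbxl5, the ligase subunit that holds iron and marks iron regulatory protein 2 for breakdown when iron is plentiful, had 102.8, 96.6 and 102.6 CPM in PEox, against 68.0, 77.0 and 65.8 CPM in vehicle. Neither gene's groups overlapped, and the log2 fold change of Fbxl5 was 0.52 ± 0.08 (SE; edgeR adjusted p = 0.00101).

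Ireb2, which encodes iron regulatory protein 2, the target of FBXL5, had 10.1, 13.5 and 15.4 CPM in PEox, against 8.61, 8.99 and 10.2 CPM in vehicle. PEox library 1 lay inside the vehicle range, and the log2 fold change of 0.49 ± 0.19 (SE, 95% interval 0.05 to 0.92) did not pass (edgeR adjusted p = 0.0775). It was called higher with library size scaling (edgeR adjusted p = 0.0309) and without PEox library 1 (log2 fold change 0.64, edgeR adjusted p = 0.0202), in a range of 0.0202 to 0.222 over all alternatives. The difference between the changes of Aco1 and Ireb2 was not tested. Bst1, which shares exon positions with Fbxl5 on the opposite strand, averaged 0.532 CPM in PEox and 2.0 CPM in vehicle, far below Fbxl5.

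**Figure D3:**
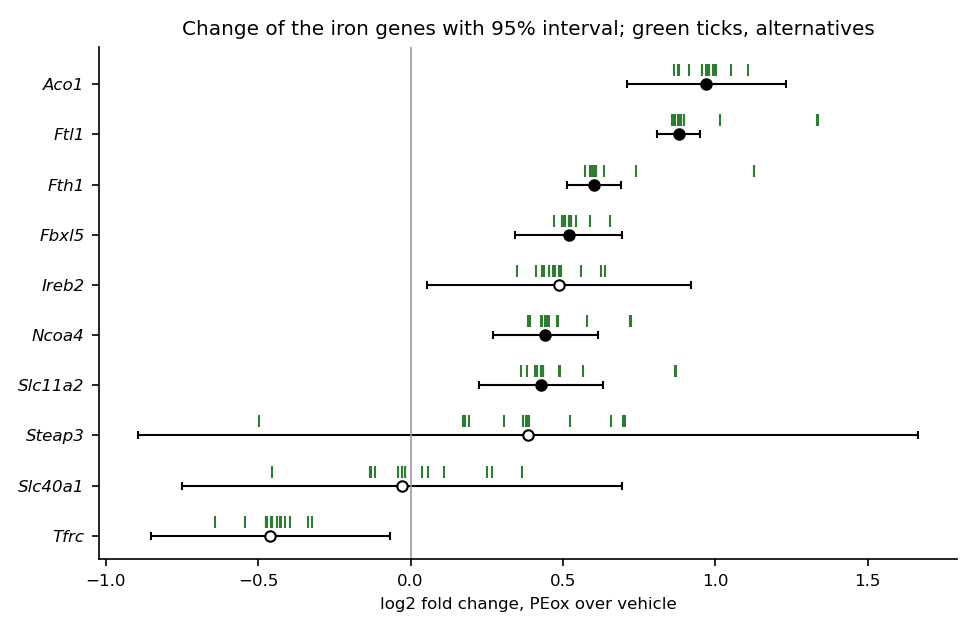
Points give the log2 fold change of PEox over vehicle (x axis) with its 95% interval, filled where the edgeR adjusted p was under 0.05 and open otherwise, and green ticks give the value under each alternative. The 6 filled genes stay right of 0 in every alternative, from Slc11a2 at 0.43 to Aco1 at 0.97, whereas Slc40a1 and Steap3 have ticks on both sides.

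Ratios of counts within a library do not depend on library scaling, and they compare the Fth1 message with those of Tfrc, Ftl1 and Ncoa4. They describe RNA only and are not corrected for the length and GC-content trend. Of the uptake genes only Tfrc was used. The ratio of Tfrc to Fth1 counts was 0.00496, 0.00441 and 0.00705 in PEox, against 0.00995, 0.0119 and 0.0122 in vehicle. All PEox values lay below all vehicle values, 0.473-fold on average (two-sided exact permutation p = 0.1, the smallest that 3 against 3 allows). The ratio of Fth1 to Ftl1 was 0.216, 0.217 and 0.205 in PEox, against 0.253, 0.261 and 0.259 in vehicle, lower in every PEox library than in any vehicle library (exact permutation p = 0.1, again the smallest possible). The ratio of Ncoa4 to Fth1 was 0.0293, 0.0315 and 0.0365 in PEox and 0.0364, 0.0388 and 0.0333 in vehicle, with overlapping groups (exact permutation p = 0.3).

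**Figure D4:**
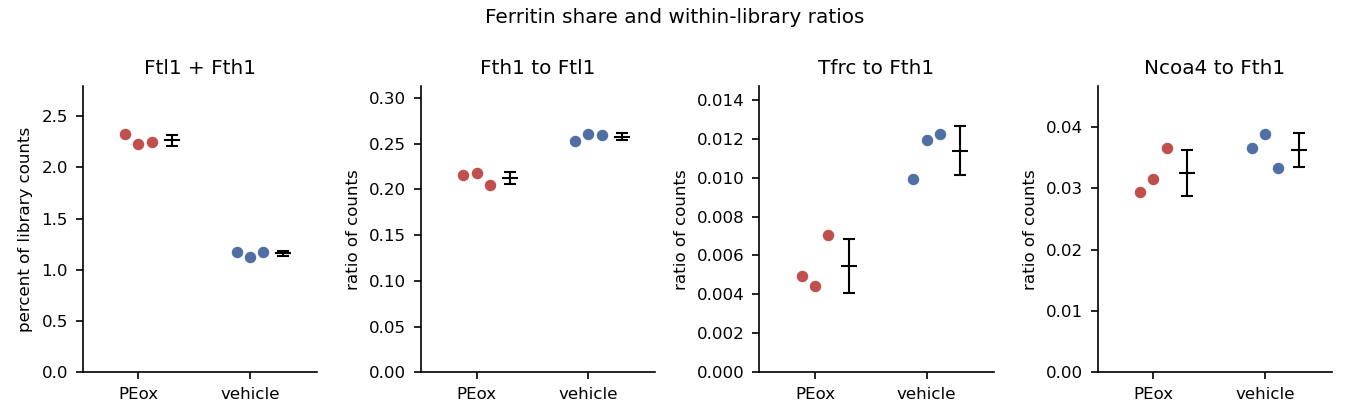
The first panel gives Ftl1 plus Fth1 as a percent of library counts and the others give ratios of counts within a library, with PEox left of vehicle, points as libraries and mean ± SD of 3 beside them. The ferritin share is higher and the Fth1 to Ftl1 and Tfrc to Fth1 ratios lower in PEox without overlap, while Ncoa4 to Fth1 overlaps.

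Levels of different genes were compared as CPM per kilobase of transcript. With the median length of protein-coding transcripts, Ftl1 was at 24232 in PEox and 13169.6 in vehicle, and Fth1 at 6402 in PEox and 4214 in vehicle. Next came Ncoa4 at 155.0 CPM per kilobase in PEox and 114.1 in vehicle and Slc11a2 at 145.9 in PEox and 108.4 in vehicle, whose library ranges overlapped in both groups. Fbxl5 and Slc40a1 overlapped in the same way at 25.4 to 36.5 CPM per kilobase. Aco1 lay above Tfrc in PEox, at 16.7 against 11.1 CPM per kilobase, and below it in vehicle, at 8.52 against 15.3, with no overlap in either group. Ireb2 and Steap3 were lowest. The median length includes short partial transcripts: for Slc40a1 it was 429.5 bases, beside 3370.0 for the longest. For Slc11a2 it was 713.5 bases, beside 4415 for the longest, which put Slc11a2 at 23.6 CPM per kilobase in PEox and 17.5 in vehicle. At that length Slc11a2 lay below Ncoa4 without overlap and overlapped with Fbxl5, in both groups. With the longest transcript as length, Ftl1, Fth1 and Ncoa4 kept the highest places, Slc40a1 moved below Tfrc, with overlapping ranges in PEox and none in vehicle, and Aco1 lay above Tfrc in both groups, at 16.7 against 4.22 in PEox and 8.52 against 5.80 in vehicle, so the change of order between Aco1 and Tfrc depends on the length model.

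Among 4448 genes averaging 50 CPM or more, those whose centred log2 CPM over the 6 libraries lay closest to Ftl1 were its pseudogene Ftl1-ps1, Ttc39b and the amino acid transporter subunit gene Slc3a2, at root mean square differences of 0.0321, 0.0386 and 0.0387. Closest to Fth1 were the Wnt pathway scaffold gene Axin1 (0.0336), Ttc3 (0.0361) and the lymphoid transcription factor gene Tcf7 (0.0380). Closest to Tfrc were the replication helicase gene Mcm4 (0.0823) and the transcription and chromatin regulator genes Hcfc1 (0.103) and Chd7 (0.108). With 6 libraries in 2 groups, such likeness cannot be told apart from a group difference of like size.

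Other iron genes, in 9 lists, moved in both directions. Of 98 tested, 30 rose, 26 fell and 42 did not pass, beside 18.3% higher and 18.8% lower over all genes tested, with a median log2 fold change of 0.05. The share called depends on level. Among all 10743 genes with at least 5 CPM in 3 libraries, 60.6% were called, 3322 as higher and 3185 as lower. With library size scaling 39 of the 98 rose and 22 fell. Removing the length and GC-content trend gave 40 and 19, and among genes named here it moved Cisd3 to -0.60, Bola3 to -0.96, Bola2 to -0.34, Alad to -0.37, Rbx1 to -0.48, Ciao2a to -0.32 and Gabarapl1 to 1.29, all still called.

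Genes around ferritin moved in both directions. Of 13 genes that work with NCOA4 in ferritin breakdown, 8 rose and 3 fell (median log2 fold change 0.42). Tax1bp1, a known adaptor of ferritin breakdown, averaged 502.2 CPM in PEox and 316.7 in vehicle, Atg16l1 rose by 1.27 on the log2 scale, Gabarapl1 by 0.84 and the kinase gene Ulk1 by 0.90, while Gabarap, Gabarapl2 and Map1lc3b fell. Scaled by library size, 9 rose and 1 fell. All 4 tested iron chaperone genes fell: Pcbp1 and Pcbp2, which load iron into ferritin, averaged 321.7 and 65.5 CPM in PEox, against 413.6 and 83.7 CPM in vehicle, and Glrx3 and Bola2, partners in cytosolic cluster transfer, dropped by 0.65 and 0.72 on the log2 scale. Scaling by library size left 3 of the 4 called and removal of the length and GC-content trend 2, with Pcbp2 at -0.02. Of the 5 FBXL5 ligase partners, Cul1, the scaffold, rose to 227.7 CPM in PEox, against 144.4 CPM in vehicle, and Rbx1, the ring subunit, fell to 213.5 CPM in PEox, against 384.7 CPM in vehicle.

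Among 13 genes for factors that act on ferritin or ferroportin transcription, 5 rose and 2 fell. Nfe2l2, which encodes NRF2, had 164.5, 161.5 and 175.3 CPM in PEox, against 125.9, 120.2 and 111.6 CPM in vehicle (log2 fold change 0.49 ± 0.06, SE; edgeR adjusted p = 0.000556). Its small Maf partner genes Mafg and Mafk rose by 0.96 and 0.86 on the log2 scale, Jund by 0.35 and the hypoxia factor gene Hif1a by 0.43, and Maff dropped by 1.63. Bach1, the repressor that competes with NRF2 for the same sites, was singled out after its values were seen; it averaged 50.9 CPM in PEox and 45.2 CPM in vehicle and did not pass (edgeR adjusted p = 0.27). Myc, known to repress the ferritin heavy chain gene, averaged 63.9 CPM in PEox and 116.8 CPM in vehicle and dropped by 0.87. Promoter windows of 300 bases from RefSeq (GRCm38.p6), 250 before to 50 after a start, were searched on both strands for the antioxidant response element core TGACNNNGC. It was found in 1 of 14 windows of 7 of the genes, a Ncoa4 window, and in 12.4% of all 32851 windows. Slc40a1, Slc11a2 and Fbxl5 had no window. Sequence outside the windows was not searched, so the search cannot show that a gene lacks the core.

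Haem genes moved both ways, with 8 of 17 higher and 3 lower. Hmox1, the haem-degrading enzyme that frees iron, had 311.9, 307.5 and 286.2 CPM in PEox, against 142.2, 142.0 and 158.8 CPM in vehicle. Slc48a1, which moves haem out of lysosomes, had 321.4, 299.3 and 291.3 CPM in PEox, against 153.9, 155.8 and 150.3 CPM in vehicle. Neither gene's groups overlapped, and the log2 fold changes were 1.03 and 0.99. Flvcr1, a haem and choline transporter gene, rose by 0.78 on the log2 scale, and Alad, an early enzyme of haem synthesis, dropped by 0.69 and Blvra, the biliverdin reductase, by 0.53. The erythroid genes given beside ferritin, among them those for haemoglobin, were higher in the same libraries, and their part was not tested.

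Genes of iron-sulphur clusters, the main mitochondrial use of iron beside haem, held calls in both directions. Of 21 mitochondrial genes 7 fell, 3 rose and 11 did not pass, whereas 7 fell and 6 rose under library size scaling and 6 fell and 7 rose once the length and GC-content trend was removed. Their median log2 fold change of -0.11 was 0.03 under either of those alternatives. Bola3 and Glrx5, which pass clusters to their targets, dropped by 1.46 and 0.84 on the log2 scale and Cisd3, a cluster-binding mitochondrial protein, by 1.13. Groups did not overlap for these 3 genes, and each was called under every alternative. The 3 that rose were Lyrm4, a subunit of the assembly complex, at 0.48, and the transporter genes Abcb8 and Abcb10 at 0.91 and 0.79. In the cytosol 4 of 8 assembly genes fell and 2 rose, or 2 fell and 4 rose with that trend removed. Ciao2a, whose human product matures iron regulatory protein 1, dropped by 0.49, the scaffold genes Nubp1 and Nubp2 by 0.48 and 0.35 and Ciapin1 by 0.32, while the targeting genes Mms19 and Ciao1 rose by 0.51 and 0.35. With that trend removed Nubp2 was at -0.09, and neither it nor Ciapin1 was called.

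Of 12 other uptake genes 3 rose and 2 fell. Slc39a8, an importer of zinc, manganese and iron, averaged 41.5 CPM in PEox and 29.4 CPM in vehicle (log2 fold change 0.50), and Slc22a17, the gene of the lipocalin 2 receptor, rose by 1.07 (log2) and Mcoln1, a channel of the lysosome membrane, by 0.31. Ndfip1, a ligase adaptor known to lower DMT1, dropped by 0.24 and was at -0.10 and not called with library size scaling, where 4 uptake genes rose and 1 fell. Steap4, a reductase gene, had no count in any PEox library, against 70, 14 and 131 counts in vehicle, and was at least 22.7-fold lower against a floor of 3 counts per library, which covers counting error only. Without vehicle library 3 the limit was 13.4-fold. The hormone and ferroxidase genes of systemic iron control were low: among 8 such genes 5 were tested and 0 called by edgeR, with 1 at an unadjusted p under 0.05 and 1 called by DESeq2. Bmp6, a growth factor that induces hepcidin, had the smallest edgeR p of them and averaged 2.64 CPM in PEox and 1.15 CPM in vehicle (edgeR adjusted p = 0.0619).

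**Figure D5:**
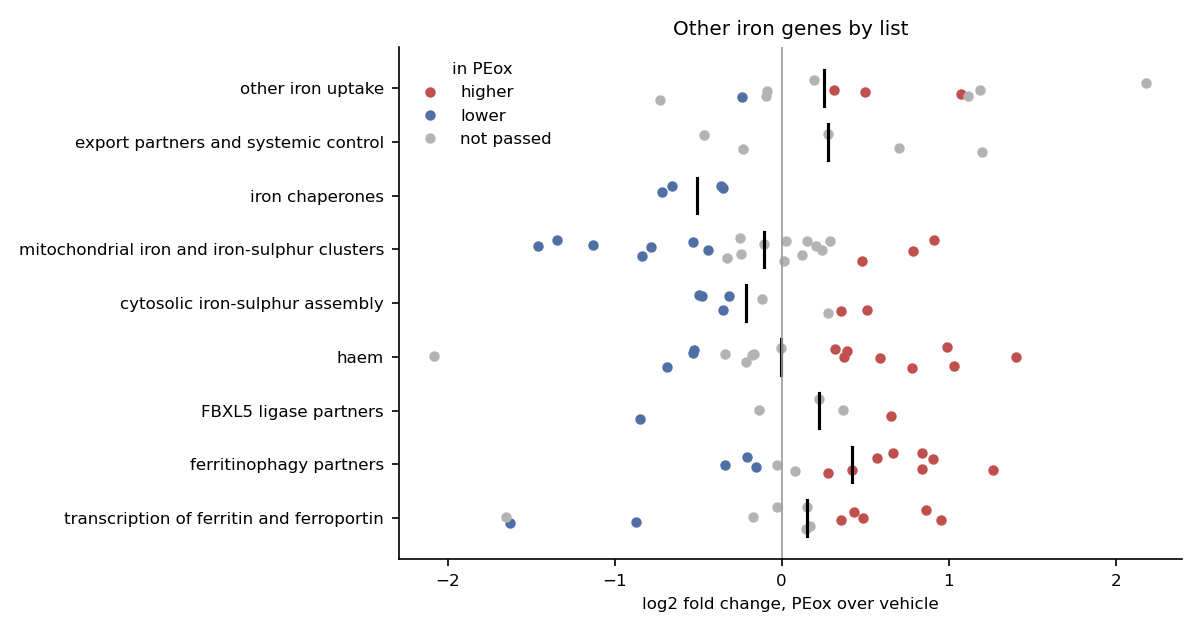
Points are tested genes of each list (y axis) by log2 fold change of PEox over vehicle (x axis), red where called higher in PEox, blue where called lower and grey where not called, with random vertical spread and the list median as a black line; Steap4, with no PEox count, is not drawn. The 4 iron chaperone genes are all blue, and the other lists with calls hold both colours.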

How the data were processed

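The authors deposited a table of whole-number gene counts, not normalized, for 6 libraries. Per the labels' protocols, paired 150 bp reads were cleaned with fastp and aligned with HISAT2 2.0.5. EdgeR 3.22.5 appears too, per the submitters' processing notes. Counter, build, annotation and strand setting: not given in the sources used here. Copies and overlapping genes are therefore uncertain. All 6 columns matched sample titles. Symbols were matched by identifier (55141 of 55401); where identifiers shared a symbol, the lowest was used. Genes passing filterByExpr (18253) were scaled by TMM (0.951 to 1.05) and tested in R 4.3.3 with edgeR 4.0.16 (robust quasi-likelihood, group as the single term, Benjamini-Hochberg adjustment over all genes); SE is the log2 fold change over the root of F. DESeq2 1.42.0 and limma 3.58.1 (voom) were alternatives. The procedure was tested on simulated data. No libraries were duplicates (chi-square over genes, per gene: 15.6 to 35.4 for libraries of one group). Members and lists were chosen with earlier results of these data known; named genes were the 10 members, up to 4 per list by p-value, ferritin copies, the 3 nearest in pattern, and genes that make up small counts. A planned comparison of proteins was not run. Lengths came from GENCODE M21, and the trend in length and GC content used the median per gene. Some genes of the lists are not reported here by name.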

Additional observations from a re-analysis of the deposited data

How the results depend on the processing

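Alternatives were RLE and library size scaling, no filter, at least 5 CPM in 3 libraries, DESeq2, limma-voom, the replicate number as a block, removal of the length and GC trend (loess, span 0.5, alone and with the block), copies added to the ferritin genes, and each library left out. All genes called ranged from 5282 to 7404, and members called were 6 or 7. The share of tested genes that was called ran from 21.2% with no filter to 60.6% with at least 5 CPM. In the latter 7 of 9 members tested were called. Of 159 member values under an alternative 145 kept direction and call. Slc40a1, not called in any, turned sign to 0.11 with library size scaling, 0.36 with the trend removed and 0.27 with the trend removed under the replicate block, and ran from -0.46 to 0.25 with a library left out. Steap3 ran from -0.50 to 0.70 with a library left out. Tfrc gained a call in 5 alternatives and Ireb2 in 2. Same-numbered libraries correlated at 0.0125 to 0.0292 in their deviations from group means, and each correlated best with its own number. Correlations this small over all tested genes can neither show nor exclude a shared animal or batch. With the replicate block 6159 genes and 7 members were called. Depth bears on Steap3, with 77 to 298 counts a library.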
